A study of Mus musculus with 24 samples.

Results

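Corticothalamic projection neurons (CThPN) of layer 6 of the mouse cortex were compared between postnatal day 7 (P7) and postnatal day 21 (P21), an interval in which these neurons pass from growth to mature signalling. Of the 9767 genes in the deposited expression table, 8078 were used. These had at least 10 FPKM, a count of read fragments scaled to transcript length and library size, at P7 or at P21, and were left after 33 rows of small RNA or clone symbols and 2 predicted genes listed at 0 throughout 1 neuron class were set aside. The comparison rests on 4 of the 24 libraries, 2 for each age. The table gives 1 value per gene and age, computed over both libraries, so no difference has an error or a test, and every statement describes these libraries. Changes are differences of log2(FPKM + 1), a scale on which changes of weakly expressed genes come out too small. Throughout, a gene "rose" or "fell" when this difference was at least 1.5 in size, which corresponds to 2.83-fold at high values. Any smaller difference is given as a value only. FPKM are per length, so levels can also be compared between genes.

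All CThPN came from Tle4-2A-CreERT2:Ai14 mice (strain C57BL/6 by the labels, a mixed C57BL/6J background by the methods), the offspring of males homozygous for both alleles and wild-type C57BL/6J females. In these mice a drug-inducible Cre is expressed with Tle4, a transcriptional co-repressor of deep-layer neurons, and Ai14 makes recombined cells express the red fluorescent protein tdTomato. 4-Hydroxytamoxifen was given to the pregnant dams late in gestation, so only cells that expressed the driver around that time were labelled at any later age. Somatosensory cortex and part of motor cortex were dissociated with papain in the presence of the glutamate receptor blockers kynurenic acid and APV. tdTomato-positive cells were then purified by fluorescence-activated cell sorting, and 10 animals from 2 litters, 5 male and 5 female, were pooled for each library. The comparison class, Cux2 CPN, consists of callosal projection neurons of the upper layers, taken in the same way from Cux2-CreERT2:Ai14 mice, a line that by the methods labels some cortical interneurons as well.

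Corticothalamic neurons send an excitatory axon from layer 6 to the thalamus and a branch to layer 4, and so adjust the flow of sensory information to the cortex. Between the ages compared the eyes open, whisking begins, axons and dendrites stop growing, and synapses are formed and pruned. Receptors and ion channels exchange immature subunits for adult ones over the same time, which shortens synaptic currents and allows fast, repetitive firing.

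From P7 to P21, 533 of the 8078 genes rose (6.6%) and 343 fell (4.25%), 10.8% in either direction. The median change over all genes was 0.01 on the log2 scale. The genes that rose had a median of 6.23 FPKM at P7 and 35.3 FPKM at P21, and those that fell had medians of 33.5 and 6.42 FPKM. In summed FPKM over the genes used, those that rose made up 2.19% at P7 and 9.93% at P21, and those that fell 7.31% and 1.37%. At the edge of the expression limit, Phf12 with 10.0 FPKM at P7 and Adssl1 with 10.0 FPKM at P21 were just inside, while Hspa2 and Bhlhe22 were just outside.

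**Figure D1:**
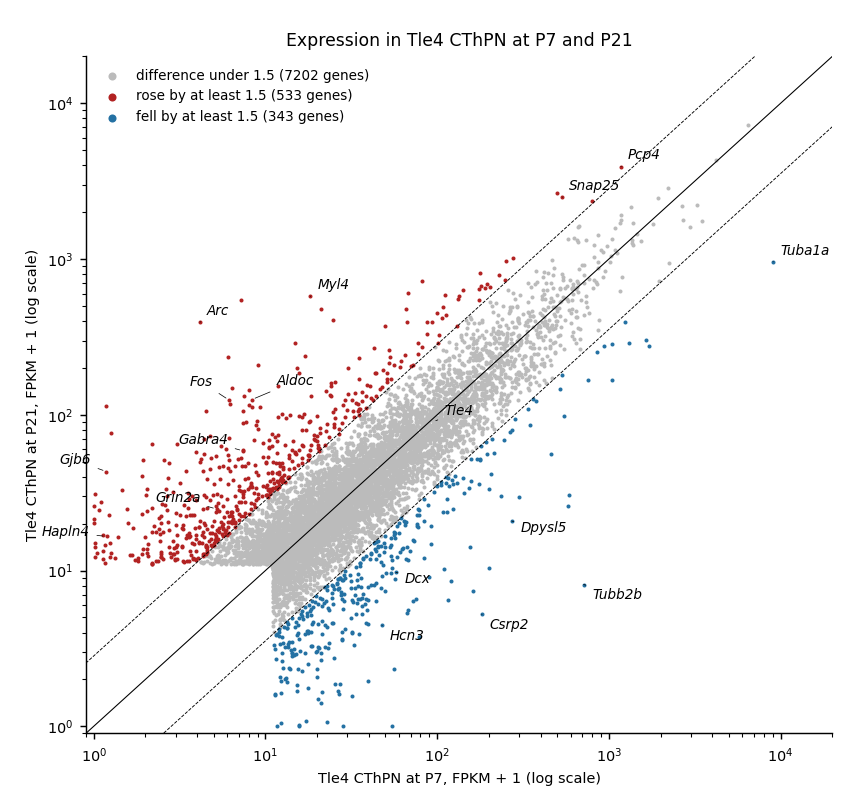
Expression of the 8078 genes in Tle4 CThPN at P7 (x axis) and P21 (y axis), both as FPKM + 1 on a log scale, with 1 point per gene. The solid line marks equal levels, the dashed lines a log2 difference of 1.5, and the empty corner at the lower left is the limit of 10 FPKM. Tubb2b and Tuba1a lie far below the lines and Arc and Gjb6 far above, while Tle4 sits on the diagonal.

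Tle4, the gene of the driver line, had 97.2 FPKM at P7 and 90.6 at P21, and Cux2, the gene of the callosal line, 1.03 and 1.34 FPKM. Many genes that mark other cells rose between the same ages. Of the astrocyte markers, 17 of the 20 used rose and 0 fell, with a median change of 2.93, and their summed FPKM at P7, P21 and P48 was 962, 3429 and 2847. The gap junction gene Gjb6 went from 0.187 to 42.2 FPKM, and the glutamate transporter gene Slc1a3 from 5.15 to 69.6 FPKM. Neurons express several members of this list too, among them Clu, Cst3 and Mt3, and 5 of its 25 symbols are not among the rows analysed here. Of the oligodendrocyte lineage, 8 of 9 markers rose, and the summed FPKM of its 11 genes in the table was 139, 414 and 236. The myelin genes Mobp and Mag were at 0.0172 and 0.10 FPKM at P7 and at 30.2 and 26.6 at P21. Of the microglial markers, 7 of 8 rose, with summed values of 39.7, 123 and 26.0 FPKM in the same order of ages. The summed FPKM of 4 globin genes was 11.5, 174 and 20.8 at these ages. The astrocyte sum thus stayed high at P48, while the microglial sum was below its P7 value and the globin sum above it, both far from P21. Of 8 endothelial and pericyte markers 4 rose, with a summed FPKM of 512 at P7 and 624 at P21, and of 3 interneuron markers used 2 rose, with a sum over 12 genes of 169.7, 159 and 39.4. Most of that sum at P7 was Npy, and the other 11 genes summed to 21.8, 85.5 and 35.4. In the list of ependyma and choroid plexus the 1 gene used rose, of 2 progenitor markers 1 rose and 1 fell, and no marker of meninges reached 10 FPKM. Among markers of glutamatergic neurons 4 of 9 rose and 0 fell, and Snap25, a protein gene of every synapse, had 2495 FPKM at P21, above every marker of glia, microglia and vessels.

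**Figure D2:**
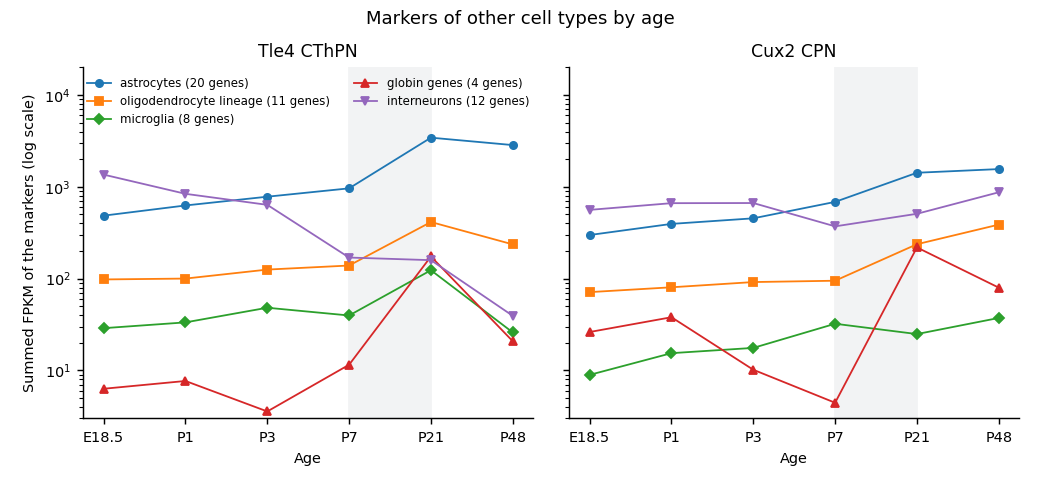
Summed FPKM (log scale) of markers of other cell types at the 6 ages in Tle4 CThPN (left) and Cux2 CPN (right), with the step from P7 to P21 shaded. In Tle4 CThPN the astrocyte sum goes from 962 to 3429 in the shaded step and stays high, and the microglial and globin sums peak at P21, while in Cux2 CPN the microglial sum does not increase in that step.

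According to the methods, papain was used at 10 U/ml up to P7 and at 20 U/ml at P21 and P48, whereas the labels have 12 U/ml for all ages. By the methods, age and enzyme concentration therefore cannot be told apart in this comparison. In sorted pools, a larger share of another cell type and more RNA per cell of that type cannot be told apart either, and the part of such cells in the results that follow was not tested. Without all genes of the marker lists of other cells, 489 genes rose and 342 fell. Within the 38 lists of neuronal and cellular functions used here, 133 of 874 members rose (15.2%) and 63 fell (7.21%), against 6.6% and 4.25% of all genes, and 128 and 63 without those marker genes. Since the lists were chosen with earlier results known, these shares only describe them.

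**Figure D3:**
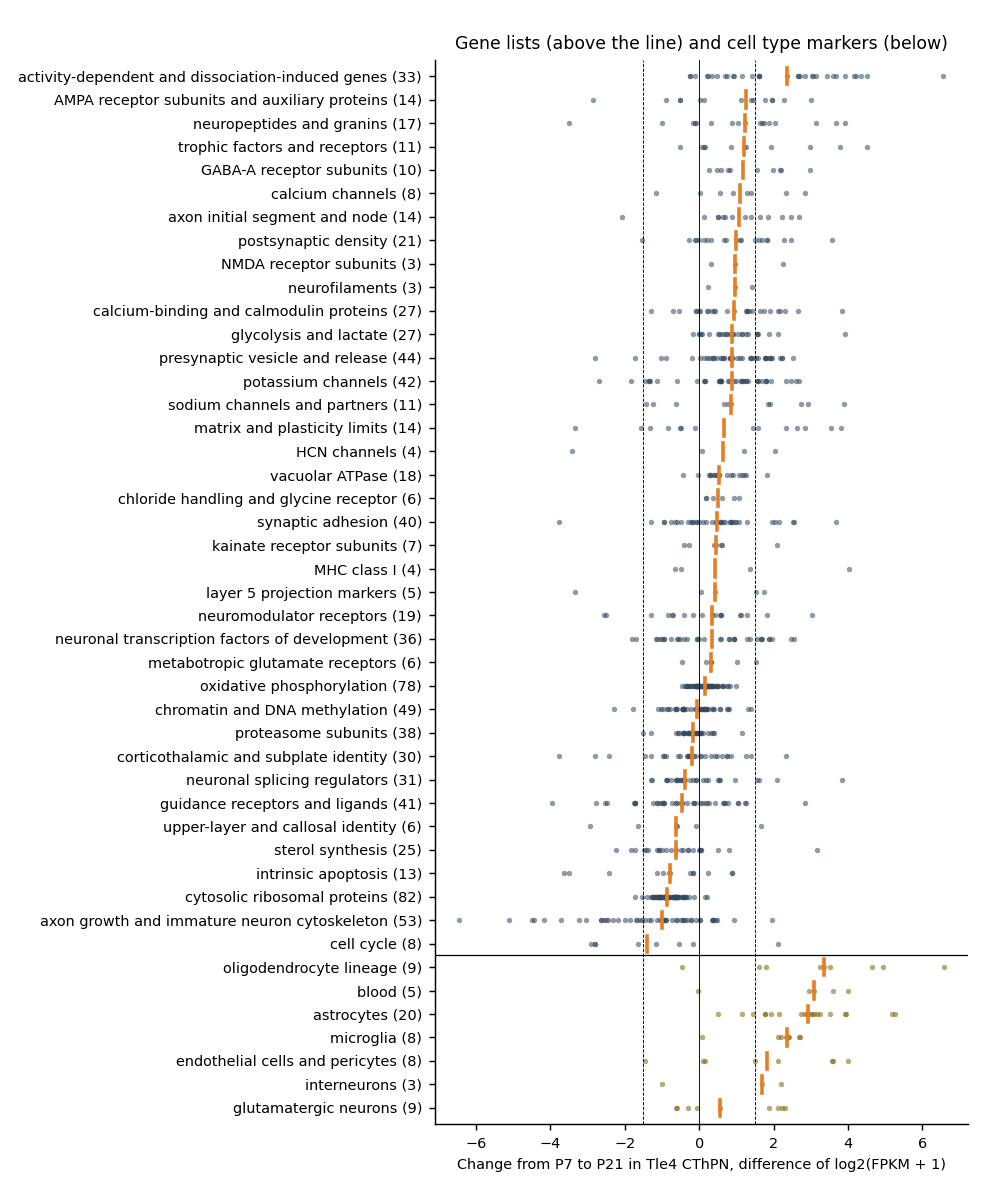
Change from P7 to P21 in Tle4 CThPN (difference of log2(FPKM + 1)) for the members of each gene list (above the line) and of each cell type marker list (below it) with at least 3 members used, whose number stands in brackets. Points are genes, orange bars are list medians and dashed lines mark 1.5 in either direction. Above the line the activity-dependent list has the highest median, 2.36, and the growth list the lowest of those with more than 10 members, -0.997, below it the oligodendrocyte lineage, blood and astrocytes reach 3.35, 3.09 and 2.93, and all oxidative phosphorylation genes lie between -0.46 and 0.99.

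Ionotropic glutamate receptors carry fast excitation. Of 3 NMDA receptor subunits used 1 rose and 0 fell (median 0.98). Grin2a, the subunit of mature synapses, went from 4.21 to 23.8 FPKM, a rise of 2.25. Grin2b, the subunit that predominates in immature synapses, had 16.7 and 21.1 FPKM, and the obligatory subunit gene Grin1 had 71.6 and 142. Grin2a was thus well under Grin2b at P7 and at a similar level at P21, and at P48 it had 12.8 against 19.6 FPKM. Grin2a lies on chromosome 16 of the build NCBIM37 from 9577803 to 9995014, on the minus strand. Of the remaining 2 subunits in the table, neither of which reached 10 FPKM at either age, Grin3a had 8.27 and 4.33 FPKM and Grin2d 5.78 and 0.954.

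Among AMPA receptor subunits and their auxiliary proteins, 5 of 14 rose and 1 fell, with a median change of 1.26. Of the 4 pore-forming subunits, 3 rose. Gria1 went from 13.8 to 56.6 FPKM, Gria2 from 33.5 to 117 FPKM and Gria3 from 21.7 to 86.8 FPKM, so that Gria2, the subunit that makes the receptor impermeable to calcium, had the highest level at both ages. Gria4 went from 19.5 to 53.1 FPKM, a difference of 1.40 that stayed short of the limit. The auxiliary subunits did not share a direction. Cacng3, a transmembrane AMPA receptor regulatory protein (TARP) gene of the mature forebrain, rose from 15.4 to 78.9 FPKM, and Cacng4, a TARP gene of the immature brain, fell from 20.1 to 1.94 FPKM. The cornichon genes Cnih2 and Cnih3, whose products help to export AMPA receptors, had differences of -0.89 and -0.52. Olfm3, which encodes a secreted olfactomedin found with AMPA receptors, rose from 6.44 to 58.7 FPKM, the largest change of the list. The kainate receptor list had 1 riser among 7 members, Grik1 with 2.06 FPKM at P7 and 12.1 at P21, and the metabotropic list 1 among 6, Grm4 with 5.64 FPKM at P7 and 18 at P21. The medians of these lists were 0.45 and 0.31.

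All 10 GABA-A receptor subunits used had a positive difference, and 5 of them rose and 0 fell (median change 1.19). Gabra4, an alpha subunit of extrasynaptic receptors, went from 6.43 to 57.7 FPKM, a rise of 2.98. Gabrd, the delta subunit of receptors for ambient GABA, went from 12.6 to 38.9 FPKM, and Gabrb1 and Gabrg3 rose by 2.16 and 2.21. The subunits of earlier development had smaller differences, 0.25 for Gabra3 and 0.49 for Gabra5. At P7, Gabra3 had 45.5 FPKM against 6.43 for Gabra4, and at P21 the levels were similar, with 54.4 against 57.7. Of 6 genes of chloride handling and glycine receptors, 0 passed the limit. Slc12a5, which encodes the chloride exporter KCC2, had 41.5 FPKM at P7 and 64.3 at P21, after 8.21 at E18.5, so most of its increase on the log2 scale came before P7.

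Voltage-gated sodium channel genes had differences in both directions. Of 11 rows used, 5 rose and 0 fell (median 0.85). Scn1a, a pore subunit of adult neurons, went from 1.3 to 16.6 FPKM, and Scn8a, the main pore subunit of the mature axon initial segment, from 5.86 to 23.6 FPKM in the 1 of its 2 rows that was used. Of the beta subunit genes, whose products modulate the pore, Scn2b went from 3.49 to 28.9 FPKM and Scn4b from 0.0203 to 14 FPKM. The embryonic pore subunit Scn3a had 11.7 and 7.29 FPKM, and its partner Scn3b 109 and 45.5. These 2 had negative differences within the limit, as did Fgf13 (-1.42), whose product binds sodium channels. Scn3b stayed above Scn2b and Scn4b at both ages, by a smaller margin at P21.

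Of 42 potassium channel genes, 12 rose and 2 fell, with a median change of 0.87. Kcna1 and Kcna2, whose channels line the axon and limit repetitive firing, went from 3.56 to 24.2 FPKM and from 2.04 to 18.6 FPKM. Kcnip3, a calcium-binding partner of A-type channels, went from 15.7 to 99.9 FPKM. The 2 that fell were Kcnk10, a leak channel gene, from 32.9 to 4.27 FPKM, and Kcng1, a silent modulatory subunit, from 21 to 5.21 FPKM. Among the genes of HCN channels, which carry the hyperpolarization-activated current, Hcn3 fell from 46.7 to 3.45 FPKM, Hcn2 had 19.4 and 20.6 FPKM, and their trafficking partner Pex5l rose from 27.2 to 113.9 FPKM. Hcn3 was thus above Hcn2 at P7 and below it at P21. Of 8 calcium channel genes, 2 rose, the beta subunit Cacnb4 from 51.3 to 261 FPKM and the intracellular release channel Itpr1 from 4.04 to 35.1 FPKM.

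**Figure D4:**
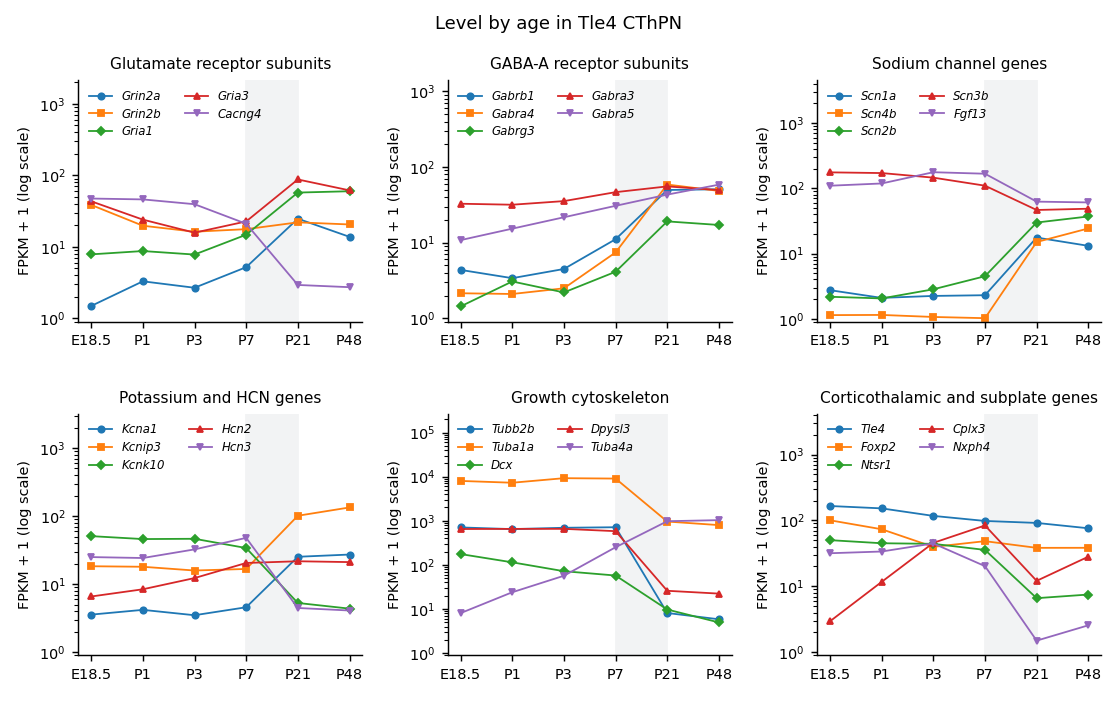
Level of selected genes (FPKM + 1, log scale) in Tle4 CThPN at the 6 ages, with the step from P7 to P21 shaded. Each line is 1 gene and each point 1 pooled value, with the ages spaced evenly on the x axis. Lines cross within the shaded step where genes exchange order, as for Hcn3 and Hcn2, and from P21 to P48 Cplx3 has the largest difference of the 30 genes, 11.1 to 27.2 FPKM.

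Most presynaptic genes had higher values at P21. Of 44 used, 14 rose and 2 fell, and 39 had a positive difference (median 0.88). Snap25, a core protein of vesicle fusion, went from 534 to 2495 FPKM, Rab3c, a vesicle GTPase, from 13.4 to 66.8 FPKM, and the synaptotagmin gene Syt12 from 2.26 to 17.8 FPKM. Slc17a7, which encodes the vesicular glutamate transporter of cortical neurons, went from 275 to 1016 FPKM. The 2 that fell were Cplx3, a complexin of subplate and some layer 6 neurons, from 82.9 to 11.1 FPKM, and Syn3, a synapsin of immature neurons, from 19.2 to 5.09 FPKM. Syp, which encodes the vesicle protein synaptophysin, had 442 FPKM at P7 and 814 at P21.

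On the receiving side, 8 of 21 genes of the postsynaptic density rose and 1 fell (median 0.99). Nos1ap, an adaptor of nitric oxide synthase, had the largest rise, from 14.7 to 185 FPKM. The scaffold genes Dlgap1 and Dlg1 went from 23 to 132 FPKM and from 12.1 to 62.6 FPKM, and Dlgap4 fell from 180.1 to 62 FPKM. The listed scaffolds therefore did not all move in 1 direction. Of 27 genes of calcium binding and calmodulin signalling, 8 rose and 0 fell (median 0.93). Itpka, a kinase of dendritic spines that acts on inositol trisphosphate, went from 7.0 to 114.1 FPKM. Of the calcium/calmodulin kinase II genes, Camk2a went from 19 to 98 FPKM and Camk2d from 10.8 to 73.5 FPKM, and Nrgn, a postsynaptic calmodulin-binding protein gene, from 134 to 581 FPKM. The lowest value of that list was -1.31, for the kinase gene Camk1g.

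Of 40 synaptic adhesion genes, 6 rose and 1 fell (median 0.47). Nptx2, a secreted pentraxin that clusters AMPA receptors, went from 2.45 to 42.8 FPKM, the alpha-neurexin ligand Nxph1 from 9.45 to 60 FPKM, and the neurexin gene Nrxn3 from 9.93 to 62.2 FPKM. Nxph4, a neurexophilin of the subplate, fell from 19.2 to 0.497 FPKM.

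Genes induced by neuronal activity had the highest median of the 38 lists of functions, 2.36, below those of the oligodendrocyte, blood and astrocyte markers, 3.35, 3.09 and 2.93, and below the 1 ependymal gene used, 3.18, with 20 of 33 past the limit upward (60.6%) and 0 downward. Arc, an immediate early gene that acts in AMPA receptor removal, went from 3.16 to 393 FPKM, and Fos, a transcription factor gene, from 5.14 to 123 FPKM. Of further immediate early transcription factor genes, Egr1 went from 20 to 479.8 FPKM, Egr3 from 0.988 to 15.5 FPKM and Nr4a1 from 7.06 to 143 FPKM. Not every member changed to this extent, since Rgs2 had 44.9 and 37.6 FPKM, Plk3 33.2 and 27.8, and Klf6 21.1 and 19.6. At P48 Arc was at 431 FPKM and Fos at 150.5, both above P21. Immediate early genes are also induced by the dissociation of tissue, and the list holds genes of both kinds. The methods give more papain at P21 and P48 than at P7, as stated above, and its part in these rises was not tested. Without the marker genes of other cells the median of the list was 2.36. Leaving out those genes does not take out RNA of this list from such cells, whose part was not tested.

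For the activity-dependent genes that rose, the promoters were read for sites of factors that respond to activity. RefSeq promoter windows of GRCm38.p6, from 250 bases before the start to 50 after, were at hand for 13 of the 20 genes that rose and for 5780 of 8065 symbols used. The cyclic AMP response element (CRE) TGACGTCA, sought on both strands, was found in 4 of the 13 (30.8%) and in 4.15% of all 5780. Its core TGACG, which the full element contains, was found in 10 of the 13 (76.9%), in 39.8% of all and in 30.8% of all genes that rose, a lower share. In the whole activity-dependent list the full element was in 5 of 24 promoters (20.8%). Over all genes that rose, 4.32% of promoters held the full element, and over those that fell 0.893%. The EGR site GCGTGGGCG was in 0 of the 13 and in 1.49% of all, and the CArG box of serum response factor in 7.69% and 1.61%. A match describes letters in a window and shows no binding. The windows below show the full element or the CArG box in capitals, 5′ to 3′ on the strand of the gene, so that the shared letters can be seen within their different surroundings.
Btg2, CRE, 166 bases before the start, chr1:135975880-135975909 minus strand: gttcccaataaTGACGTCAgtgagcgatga
Dusp1, CRE, 143 bases before the start, chr17:26645542-26645571 minus strand: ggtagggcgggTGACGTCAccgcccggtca
Pcsk1, CRE, 78 bases before the start, chr13:75227216-75227245 plus strand: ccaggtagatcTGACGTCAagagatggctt
Scg2, CRE, 68 bases before the start, chr1:79436651-79436680 minus strand: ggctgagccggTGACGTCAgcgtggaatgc
Egr2, CArG box, 72 bases before 1 of its starts, chr10:67000232-67000261 plus strand: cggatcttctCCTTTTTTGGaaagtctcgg
Egr2, CArG box, 72 bases before another of its starts, chr10:67000535-67000564 plus strand: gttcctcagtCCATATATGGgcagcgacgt

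These coordinates are of NCBIM37, the build of the deposited values, in which each of these 300-base RefSeq promoters was found unchanged at a single place of its chromosome. The 4 genes with the CRE encode an antiproliferative factor (Btg2), a MAP kinase phosphatase (Dusp1), a prohormone convertase (Pcsk1) and a granin of dense-core vesicles (Scg2). Btg2 went from 4.27 to 26.1 FPKM and Dusp1 from 17.4 to 132 FPKM. Pcsk1 went from 1.01 to 29.6 FPKM and Scg2 from 8.07 to 79.6 FPKM. Egr2, a zinc finger transcription factor gene, went from 0.226 to 21.8 FPKM.

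Genes of axon growth and of the immature cytoskeleton fell more often than they rose. Of 53 used, 21 fell and 1 rose, with a median change of -0.997, and 39.6% of the list was past the limit downward against 4.25% of all genes. Tubb2b, a beta-tubulin of growing neurons, went from 713 to 7.13 FPKM, a 99.9-fold lower level and the largest fall of any gene used. It lies on chromosome 13 of NCBIM37 from 34218877 to 34222223, on the minus strand. Csrp2, a LIM domain protein gene, went from 181 to 4.24 FPKM, and Dpysl3, a collapsin response mediator of growth cones, from 581 to 24.9 FPKM. Dcx, the doublecortin gene of migrating neurons, went from 56.5 to 8.75 FPKM. The 10 tubulin genes used had a summed level of 17028 FPKM at P7 and 4756 at P21, and 5 fell and 1 rose. Tuba1a alone went from 9039 to 959 FPKM, and the riser was Tuba4a, from 250.4 to 977 FPKM. Tubb4a, a tubulin of mature neurons, was at 667 and 858 FPKM, so that these 3 were at similar levels at P21, while at P7 Tuba1a was above every other tubulin of the lists.

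Guidance genes followed in part, with 8 of 41 that fell and 1 that rose (median -0.46). St8sia2, the enzyme gene for polysialic acid on the adhesion molecule NCAM, was at 14.8 FPKM at P7 and 0.0228 at P21. Sema6c and the plexin gene Plxna3, a ligand and a receptor component of semaphorin signalling, fell by 2.53 and 2.77. Sema3e was the one riser, from 2.17 to 21.7 FPKM. Neurofilament genes stayed within the limit, with Nefm at 35.1 FPKM at P7 and 96 at P21, Nefl at 85.2 and 166, and Ina at 129 and 151. Of 14 genes of the axon initial segment and node (median 1.06), 5 rose, among them Nrcam from 53.2 to 168 FPKM and Lgi3 from 3.1 to 18.1 FPKM, and 1 fell, the adhesion gene Cntn2 from 46.3 to 10.3 FPKM.

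Of 14 genes of extracellular matrix and of limits to plasticity, 6 rose and 2 fell (median 0.67). Hapln4, a link protein of perineuronal nets, went from 0.191 to 15.6 FPKM, Bcan, the brevican gene, from 6.58 to 46 FPKM, and Vcan, the versican gene of immature matrix, from 16.7 to 0.749 FPKM. Lynx1, a brake on nicotinic receptors, went from 6.74 to 88.8 FPKM, and Rtn4, which encodes the growth inhibitor Nogo, from 65.3 to 478 FPKM. Several genes of this list are also expressed by glia, and the astrocyte and oligodendrocyte marker sums given above went up over the same interval. Without the genes of those marker lists the median of this list was -0.11.

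Genes of corticothalamic and subplate identity had a median near that of all genes. Of 30 used, 1 rose and 3 fell, with a median change of -0.19. Tbr1 and Fezf2, transcription factors of deep layers, had 114.2 and 93.2 FPKM and 59.8 and 100.2, and Foxp2, a factor of layer 6, had 47.4 and 37.4. The 3 that fell were Ntsr1, the neurotensin receptor gene used as a marker of these cells, from 34.7 to 5.6 FPKM, and the subplate genes Cplx3 and Nxph4 already given. Cplx3 had 1.95 FPKM at E18.5 and its highest value at P7, and it had 27.2 at P48. Ntsr1 was still at 6.5 at P48. The riser was the collagen gene Col12a1, from 3.15 to 19.8 FPKM. Of the upper-layer list, 6 of 20 genes in the table reached 10 FPKM, the median was -0.61 (0.17 over all 20 with no minimum), and 2 of them fell, Lpl from 26.8 to 2.66 FPKM and Cdh13 from 112 to 35.3 FPKM, while the LIM domain gene Lmo4 rose from 40.1 to 128 FPKM. Of 5 layer 5 genes used (median 0.43), Pcp4, a calmodulin regulator also made by layer 6 neurons, rose from 1175 to 3927 FPKM, Etv1 rose from 37.6 to 109 FPKM, and S100a10 fell from 300.2 to 28.8 FPKM.

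Transcription factor genes of neuronal development did not share a direction, with 9 of 36 that rose and 2 that fell (median 0.34). Nr3c1, the glucocorticoid receptor gene, went from 9.56 to 61.3 FPKM, and Hlf, a clock-related factor gene, from 8.68 to 52.6 FPKM. Sox4, a factor of newborn neurons, fell from 63.6 to 18.7 FPKM, and its relative Sox11 had 3.9 and 1.72 FPKM after 39.3 at E18.5. Zfp238, a repressor of neurogenesis programmes, fell from 194 to 55.2 FPKM. Of 49 chromatin and DNA methylation genes, 0 rose and 2 fell, Hmgb3 from 175 to 34.9 FPKM and the BAF complex gene Smarcd3 from 176 to 50.6 FPKM. The median of that list, -0.06, was close to that of all genes. Of 31 splicing regulators, 4 rose and 0 fell, and 20 had a negative difference (median -0.37). Mbnl2, the muscleblind gene that promotes adult splice forms in brain, went from 6.41 to 104 FPKM. The quaking gene Qk went from 7.26 to 34.4 FPKM and Rbfox1 from 17 to 54.1 FPKM. In Cux2 CPN 1 of the 31 rose and 1 fell, and Qk had 7.09 and 8.16 FPKM. The part of other cells in these values was not tested.

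Of 13 genes of intrinsic apoptosis, 3 fell and 0 rose, and 10 had a negative difference (median -0.79). Bok, a pro-death BCL2 family gene, went from 71.6 to 5.37 FPKM, and Bbc3, which encodes PUMA, from 43.3 to 7.28 FPKM. Bax had 134 and 68.4 FPKM, and the survival gene Bcl2l1 76.1 and 68.1. The 3 members with positive differences were Bnip3 (0.88), Bnip3l (0.87) and the cytochrome c gene Cycs (0.23). At E18.5, Bok had 49.4 FPKM and Bbc3 43.9, so that neither was lower at P7 by more than 1 FPKM. Of 8 cell cycle genes, 4 fell and 1 rose (median -1.41). Mcm6, of the replicative helicase, fell from 28.2 to 3.19 FPKM, and Rrm2, of deoxynucleotide synthesis, from 35.7 to 4.23 FPKM. The cell cycle inhibitor genes Cdkn1a and Cdkn1c fell from 76.7 to 23.7 FPKM and from 11.4 to 0.646 FPKM. The riser was Ccnd2, a cyclin gene, from 2.93 to 16 FPKM.

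The list of glycolysis had a higher median than that of respiration. Of 27 genes of glycolysis and lactate handling, 6 rose and 0 fell, and 24 had a positive difference (median 0.89). Aldoa, the main aldolase gene, went from 797 to 2346 FPKM, Eno2, the neuronal enolase gene, from 249 to 734 FPKM, and Ldhb, the lactate dehydrogenase form that favours pyruvate, from 174 to 642 FPKM, whereas Ldha had 944 and 835 FPKM. The largest rise of the list was that of Aldoc, from 7.33 to 124 FPKM, a gene that is also in the astrocyte marker list. All 78 oxidative phosphorylation genes stayed within the limit, between -0.46 and 0.99 (median 0.15). Of the 18 genes of the vacuolar proton pump, which also fills synaptic vesicles, 16 had a positive difference (median 0.53), and Atp6v1g2, a subunit of neurons, rose from 195 to 687 FPKM.

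Most genes of protein and sterol synthesis had lower values at P21. Of 82 rows of cytosolic ribosomal proteins, 80 had a negative difference, with a median of -0.87 against 0.01 over all genes, and 2 were past the limit, Rpsa from 169.9 to 51.2 FPKM and Rps19 from 361 to 125 FPKM. Ribosomal protein genes have many processed copies in the genome, so their values are uncertain where reads could be shared. Of 25 genes of sterol synthesis and handling, 3 fell (median -0.62), all of them enzymes of the early pathway. They were Mvd from 90.9 to 18.46 FPKM, Fdps from 518 to 145 FPKM and Mvk from 52.9 to 15.2 FPKM. The single member that rose is also in the astrocyte list. Proteasome subunits had a median of -0.17, with Psme1, an activator subunit gene, as the 1 that fell, from 105 to 36.3 FPKM.

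Among 19 receptors for neuromodulators, 2 rose and 2 fell (median 0.36). Cckbr, the cholecystokinin receptor gene, went from 7.54 to 68.3 FPKM and Chrm1, the M1 muscarinic receptor gene, from 18.51 to 67.4 FPKM. Crhr1, the receptor gene for corticotropin-releasing hormone, went from 17.6 to 2.27 FPKM, and Htr7, a serotonin receptor gene, from 11.2 to 1.06 FPKM. Of 17 genes of neuropeptides and their processing, 8 rose and 1 fell (median 1.22). Vgf and Chgb, of dense-core vesicles, went from 24 to 83.1 FPKM and from 174 to 545 FPKM, and Trh, the thyrotropin-releasing hormone gene, fell from 74.1 to 5.59 FPKM. Sst, an interneuron peptide gene, was at 10.7, 36.8 and 8.96 FPKM at P7, P21 and P48, and the interneuron enzyme gene Gad1 at 0.998, 6.95 and 2.0. Npy, another interneuron peptide gene, had 1334 FPKM at E18.5 and was at 148, 73.4 and 3.97. Nxph1 and Grik1, which rose, are also expressed by interneurons, and the part of such cells was not tested. Of 11 trophic factor genes (median 1.20), 4 rose, with the insulin-like growth factor binding protein genes Igfbp6 at 0.0698 FPKM at P7 and 23.4 at P21 and Igfbp4 at 16.1 and 236. In the list of MHC class I genes, H2-T23 rose from 1.05 to 32.4 FPKM, and 3 others stayed within the limit (median 0.44).

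Beyond the lists, the 12 largest rises included Myl4, a myosin light chain gene, from 17.3 to 576 FPKM, the glutathione transferase gene Gsta4 from 1.18 to 63.6 FPKM, and the non-coding transcripts Gm13706 and 2210408F21Rik from 6.24 to 542 FPKM and from 0.927 to 50.3 FPKM. Myl4 lies on chromosome 11 of NCBIM37 from 104411977 to 104457067, on the plus strand. Ighm, an immunoglobulin constant region gene of B cells, was at 0.255, 75 and 235 FPKM at P7, P21 and P48, and at 0.393, 0.696 and 0.684 in Cux2 CPN. The ribosomal RNA row n-R5s164 was listed at 0 at P7 and 25.1 FPKM at P21. The 12 largest falls included Slc29a4, a monoamine transporter gene, from 55 to 1.33 FPKM, Pafah1b3, a catalytic subunit of platelet-activating factor acetylhydrolase, from 161 to 6.35 FPKM, and the ubiquitin ligase gene Trim67 from 22 to 0.0639 FPKM. They also included rows of the small RNAs U6 and CT010471.1, which were listed at 0 at P21. Rows with at most 300 nt of exons or a small RNA symbol numbered 100, of which 7 rose and 4 fell, and FPKM of such short rows are unstable.

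The 2 neighbouring intervals had fewer changes, and they share a column with the one described, so their values are given only side by side. From P3 to P7, 0.479% of the genes with 10 FPKM at either age rose and 0.359% fell, and from P21 to P48 0.249% rose and 0.302% fell. The intervals differ in length. The genes that rose from P7 to P21 had medians of 3.49, 4.17 and 4.52 FPKM at the 3 ages before P7 and of 34.3 FPKM at P48, and those that fell had 32.0, 34.95, 36.6 and 6.07 FPKM. Measured from P7 to P48, 439 of the 533 risers (82.4%) and 310 of the 343 fallers (90.4%) were still past the limit. Over all genes used, 6.26% rose and 4.87% fell from P7 to P48. The risers and fallers were picked by a difference from the same P7 value, so these shares are no independent measure of persistence. Of the risers, 16 dropped by at least 1.5 from P21 to P48. They included 6 microglial genes (C1qa, C1qb, C1qc, Ctss, Laptm5 and Tyrobp), the 4 globin genes, Sst, the chemokine gene Cxcl12, the matrix gene Sparc and 2 small RNAs. C1qb, a complement gene, was at 2.44, 21.3 and 1.28 FPKM.

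Over the same interval and genes, 5.63% rose and 4.02% fell in Cux2 CPN, which share no column with Tle4 CThPN. Of the genes that rose in Tle4 CThPN, 276 also rose in Cux2 CPN, which is 51.8% of the Tle4 list and 60.7% of the Cux2 list. Of those that fell, 190 fell in both, 55.4% and 58.5% of the lists. Any increase in Cux2 CPN was found for 486 of the 533 risers, and any decrease for 321 of the 343 fallers, while over all genes used 53.5% had an increase and 46.4% a decrease. Among growth genes Tubb2b fell in both classes, with 563 and 2.11 FPKM in Cux2 CPN, and among activity-dependent genes Arc rose in both, with 2.25 and 229. The medians of these lists were -1.11 and 2.12 in Cux2 CPN. The ribosomal protein genes had a median of -0.42 in Cux2 CPN against -0.87 in Tle4 CThPN.

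Several glutamate and GABA receptor genes had unlike values in the 2 classes. In Cux2 CPN, Gria1 and Gria3 had 71.7 and 53.9 FPKM and 17.9 and 20.6, differences of -0.41 and 0.19 against 1.96 and 1.95 in Tle4 CThPN. The median of the GABA-A subunits was 0.25 in Cux2 CPN against 1.19. At P7, Gabra4 was at 6.43 FPKM in Tle4 CThPN and 40.9 in Cux2 CPN, and at P21 at 57.7 and 92. Gabrb1 was at 10.097 and 32 at P7 and at 48.7 and 36.3 at P21. For both genes the classes were closer at P21 than at P7. A difference under 0.5 either way in Cux2 CPN was found for 57.0% of all genes used and for 75 of the 533 risers (14.1%), a lower share. These 75 included Olfm3 (5.36 and 5.92 FPKM), Nos1ap (43.3 and 51.3) and Igfbp4 (46.5 and 51.2). Conversely, Gsg1l, an auxiliary protein gene of AMPA receptors, had 38 and 26.3 FPKM in Tle4 CThPN and 0.481 and 31.9 in Cux2 CPN. Sla, an adaptor gene, had 144 and 52 FPKM in Tle4 CThPN and 128 and 0.571 in Cux2 CPN, and Calca, the gene of calcitonin gene-related peptide, 16.3 and 0.078 against 0.239 and 0.367. None of these class differences has a test.

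**Figure D5:**
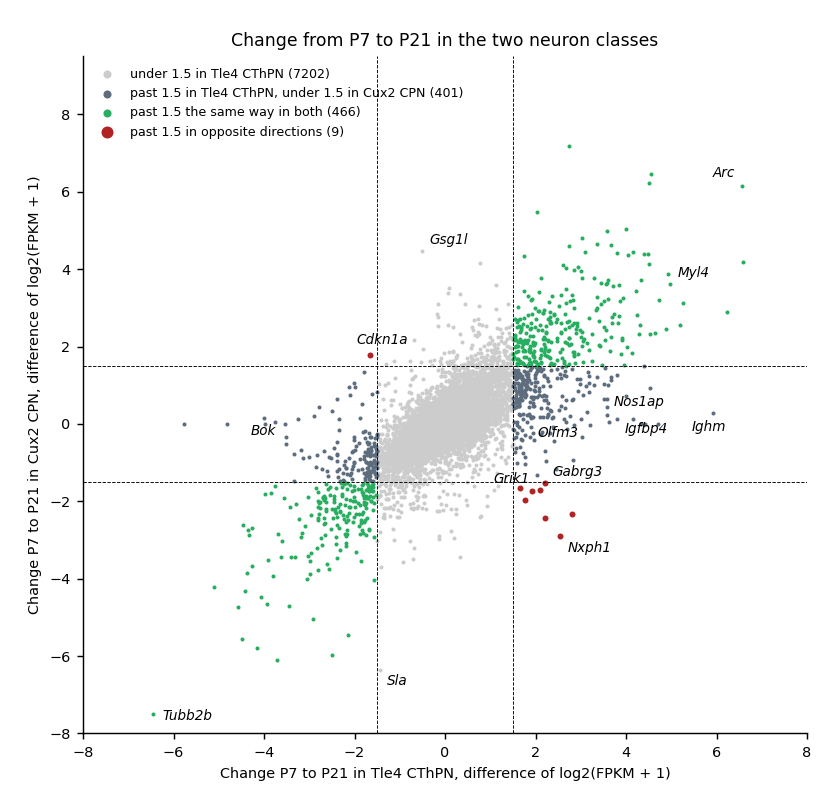
Change from P7 to P21 in Tle4 CThPN (x axis) and Cux2 CPN (y axis), as differences of log2(FPKM + 1), with 1 point per gene and dashed lines at 1.5 in either direction. Green points, 276 upward and 190 downward, moved past the limit the same way in both classes, and the 9 red points moved past it in opposite directions.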

How the data were processed

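RNA of sorted neurons was amplified with SMART-Seq v4. The authors trimmed the reads, aligned them to mm9 with TopHat2 and deposited FPKM values made with Cuffdiff, 1 per gene and group over 2 libraries. The between-library normalization option is not given in the sources used here. Since FPKM keep no read number, the depth of each library is unknown here and no interval can be given. Differences of log2(FPKM + 1) were computed here from the deposited values with pandas 2.3.3 and numpy 2.4.6 under Python 3.11.15, checked on simulated data, and drawn with matplotlib 3.10.9. Genes needed 10 FPKM at P7 or P21, and 1.5 was the limit. Of the 8078 genes, 26 rows share a symbol and 17 symbols had been turned into dates. Coordinates are from GENCODE annotation of NCBIM37, and promoters from RefSeq.

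Genes were named by rule: the 12 largest changes each way, the 3 highest and 3 lowest members of each list, any member of lists of up to 20, cell type markers, the 6 genes each way that differed most between classes, the Cre line genes, and Sox4, Sox11, Apc2, Egr3, Syp and Nefm. Others, such as Tuba1a, Dcx, Foxp2, Fezf2, Nr4a1, Btg2, Dusp1, Egr2, Aldoa, Eno2 and Cxcl12, were chosen after their values were seen. The genes and lists were chosen with earlier results of these data known. Alternatives were another pseudocount, minimum, limit, scaling, symbol filter and set of genes, and neighbouring ages. Some genes counted in the totals are not reported by name here.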

Additional observations from a re-analysis of the deposited data

Results flagged for a closer look

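Among the 8078 genes, 9 moved past 1.5 on the log2(FPKM + 1) scale in opposite directions in the 2 neuron classes between P7 and P21. With 1 pooled value per class and age, these class differences were not tested. Each value below is the change in Tle4 CThPN minus the change in Cux2 CPN, on the log2 scale.

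Values are given for 8 of these genes. For Gabrg3, a GABA-A receptor gamma subunit gene, the difference was 3.75, from 3.12 to 18.1 FPKM in Tle4 CThPN and from 11.5 to 3.3 in Cux2 CPN. For Grik1, a kainate receptor subunit gene, it was 3.8, from 2.06 to 12.1 FPKM and from 19.4 to 5.28. At P21 the levels of both genes were higher in Tle4 CThPN, whereas at P7 they were higher in Cux2 CPN.

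For Nxph1, a neurexin ligand gene, the difference was 5.44, the largest of the 9, from 9.45 to 60 FPKM and from 51.5 to 6.08. For Plcxd3, a phospholipase C domain gene, it was 5.13, from 3.37 to 29.5 FPKM and from 18.1 to 2.81. Vwc2l, which encodes a secreted protein, gave 3.73, from 2.71 to 11.6 FPKM and from 5.16 to 0.576. Slc17a8, the gene of the vesicular glutamate transporter VGLUT3, gave 3.65, from 2.86 to 13.7 FPKM and from 2.8 to 0.152. Id4, an inhibitor of basic helix-loop-helix factors, gave 3.31, from 2.76 to 10.9 FPKM and from 9.18 to 2.26.

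The only one of the 9 that fell in Tle4 CThPN was Cdkn1a, the gene of the cell cycle inhibitor p21, with -3.43, from 76.7 to 23.7 FPKM and from 30.1 to 106 in Cux2 CPN.

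Beside these values, the summed FPKM of 12 interneuron markers was 169.7 at P7 and 159 at P21 in Tle4 CThPN and 371 and 508 in Cux2 CPN (21.8 and 85.5, and 269 and 363, without Npy), and the part of such cells in these pooled values was not tested here. By the methods, the Cux2 line labels some interneurons. Sorted cells of both classes were sequenced singly to measure their share, which is not analysed here. The paper found few cells with interneuron markers over both classes together, and concluded that interneurons had a minimal effect on its analysis.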

How the results depend on the processing

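The table gives 1 value per gene and group, so leaving out a library was not run, and depth per library is unknown. No paired analysis was possible because the columns carry no replicate numbers. With a pseudocount of 5 in place of 1, 336 genes rose and 208 fell, 161 and 107 of them in both classes, and 4 moved in opposite directions. With a minimum of 30 FPKM these numbers were 301, 188, 168, 110 and 2. With a limit of 1 they were 948, 739, 546, 396 and 23, and 123 list members fell, and with a limit of 2, 293 genes rose and 188 fell. Each of these settings is stricter or looser by construction. A pseudocount of 0.1 (582 and 380), no minimum (619 and 402), scaling by the median ratio (541 and 334), no symbol filter (546 and 353) and removal of markers of other cells (489 and 342) stayed within 1.5 times the main counts. So did alternatives chosen after seeing the data, P48 in place of P21 (539 and 392) and P3 in place of P7 (764 and 468). Removal of short genes (526 and 339), also chosen then, did so too. Removing markers or short genes, or keeping all symbols, concerned few rows, so those counts could not have moved past 1.5 times. With P48 the change of Sst turned to -0.23, and the cause was not tested. Of the list medians, that of matrix genes turned to -0.30 with a minimum of 30 FPKM, -0.11 without markers and -0.32 with P48. That of upper-layer genes turned to 0.01 with a minimum of 30 FPKM and 0.17 with no minimum. That of transcription factors turned to -0.03 with P3. In this order, these medians lay between -0.32 and 1.19, between -0.95 and 0.17, and between -0.03 and 0.36 over all alternatives. Over all alternatives the median of the activity-dependent list lay between 1.61 and 2.58, of NMDA subunits between 0.32 and 1.93, of metabotropic receptors between 0.0021 and 1.21, of neurofilaments between 0.15 and 2.47, of calcium channels between 0.29 and 1.55, of trophic factors between 0.29 and 1.29, of layer 5 genes between 0.13 and 1.69, of MHC genes between 0.36 and 1.69, of potassium channels between 0.72 and 1.48 and of HCN genes between 0.45 and 1.28. The same range was 0.82 to 1.70 for GABA-A subunits, 0.07 to 0.60 for kainate receptors, 0.66 to 1.33 for sodium channels, 0.84 to 1.325 for presynaptic genes, 0.68 to 1.503 for the postsynaptic density, 0.16 to 0.51 for adhesion, 0.66 to 1.53 for the axon initial segment, 0.73 to 1.39 for glycolysis, 0.11 to 0.36 for oxidative phosphorylation and 0.48 to 0.96 for the vacuolar pump. It was -0.81 to -0.26 for apoptosis, -0.44 to -0.04 for chromatin, -0.345 to -0.12 for corticothalamic identity, -0.48 to -0.21 for splicing and -0.77 to -0.38 for sterol genes. The medians of the remaining lists stayed within 1.5 times their main value under every alternative run.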

Other observations

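The 20 genes that rose by at least 1.5 both from P3 to P7 and from P7 to P21, intervals that share the P7 value, held Gabra4, the synapsin gene Syn2 and Lynx1. Gabra4 was at 1.49, 6.43 and 57.7 FPKM at P3, P7 and P21, Syn2 at 20.6, 71.4 and 209, and Lynx1 at 1.1, 6.74 and 88.8. Of the 343 genes that fell from P7 to P21, 0 had fallen by this size from P3 to P7 and 3 fell by it again from P21 to P48. Over all genes with 10 FPKM at either age of an interval, 0.479% rose and 0.359% fell from P3 to P7 and 0.302% fell from P21 to P48, so that 0 of 343 is near the level of all genes. One of the 3 was Marcksl1, a gene of the growing cytoskeleton, at 1309.7, 288 and 73.5 FPKM at P7, P21 and P48. All genes in this paragraph other than Gabra4 and Lynx1 were chosen after their values were seen.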
